A study of Homo sapiens with 8 samples.

Results

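Editing scores of the P-body-depleted cytosol of HEK293T cells were set against those of whole cells treated with a control siRNA. The comparison was made gene by gene for each of 2 RNA editors. It used 4 of the 8 libraries of the series: Cytosol replicates 1 and 2, and siNC replicates 1 and 2. Members were the genes listed in both the table of the sorting experiment and the table of the EDC4-knockdown experiment of an editor. They numbered 10578 of 12034 listed A-to-I genes and 10654 of 11956 listed C-to-U genes, and 10238 and 10287 of them had at least 50 reads in each of the 4 libraries.

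HEK293T is a human embryonic kidney line. Every library came from this line with both P-body-directed editors, per the sample titles, and no editor-free library was among them. The cytosol libraries were made from 100 ng of cytosolic RNA, the RNA left beside fluorescence-sorted P-bodies, and are labelled cytoplasmic RNA. The siNC libraries were made from 500 ng of total RNA of cells with the control siRNA of the EDC4 knockdown and are labelled polyA RNA. Fraction, siRNA treatment, input mass and experiment thus all differ between the groups and cannot be told apart. The scores also come from separate tables, and whether these rest on the same list of edited sites was not given in the sources used here. The labels give a batch number equal to the replicate number and do not say that replicates were separate cultures. The spread between libraries may therefore be technical. With the siNC libraries summed, as in the main tests, p-values measure the spread between the 2 cytosol libraries only. The C-to-U tests relative to the median gene described below also took the spread of other libraries of the series.

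P-bodies are cytoplasmic granules that hold translationally repressed mRNA together with decapping and deadenylation factors such as DDX6, EDC4, LSM14A and DCP1A. A TRIBE editor carries the deaminase domain of ADAR, which turns adenosine into inosine, and a STAMP editor carries an APOBEC enzyme, which turns cytidine into uridine. Tied to a P-body protein, both leave marks on RNA that came near it, and the marks stay on the RNA after it leaves the granule. The editing score of a gene is the share of its counted reads that carry an edit, given here in percent. Which positions were counted was not given in the sources used here, so scores are gene-level values and no edited site or sequence is shown.

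The listed genes held 14954037 and 15654811 A-to-I reads in the cytosol libraries against 6243091 and 5759477 in the siNC libraries. The median gene with at least 50 reads had 905.5 and 950 reads in cytosol and 373 and 342 in siNC, with nearly the same depth for C-to-U. Reads per gene of the siNC libraries differed by no more than sampling noise (chi-square per degree of freedom 1.02, p = 0.063 for A-to-I and 0.076 for C-to-U), while the cytosol libraries gave 2.00 and 1.99 and the sorted and siEDC4 pairs more. Because of these reads per gene, the siNC libraries were summed and counted as 1 sample in tests, unless said to be kept apart. Both values are shown. Edited reads of the siNC libraries differed by more than their reads per gene did (1.30 for both editors). That spread does not enter tests on the summed sample. In the gene counts of the cytosol libraries, all 12 markers described in HEK293T exceeded 1 CPM (counts scaled to a common library total). They summed to 909.7 to 947.3 CPM. So did 6 of 10 fibroblast markers exceed 1 CPM (summed 82.0 to 88.3 CPM), as did 5 of 9 markers of epithelial tumour lines (98.7 to 101.8 CPM). Only 1 of 12 blood cell markers did. The blood markers summed to 2.18 to 2.36 CPM, with CD3E, MS4A1 and HBB at 0. No gene counts of the siNC libraries were used here.

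The 2 editors shifted in opposite directions between the preparations. The median gene scored 2.95% and 2.78% for A-to-I in the cytosol libraries and 1.05% and 1.03% in the siNC libraries, a ratio of 2.75 of cytosol to siNC. For C-to-U it scored 0.546% and 0.513% in cytosol and 1.64% in both siNC libraries, a ratio of 3.10 of siNC to cytosol. No cytosol value overlapped an siNC value for either editor. The A-to-I ratio was 2.82 within batch 1 and 2.69 within batch 2, and the C-to-U ratio was 3.00 and 3.20. An exact two-sided permutation test gave p = 0.333 for each editor, the smallest value this design allows. In the sorted P-body libraries of the same series, the median gene scored 7.35% and 7.69% for A-to-I and 2.44% and 2.79% for C-to-U.

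Within a library, this opposite shift turned the balance of the editors over. Among 10096 genes with values for both, A-to-I exceeded C-to-U in 89.5% and 89.7% of genes in the cytosol libraries. It did so in 29.6% and 28.7% of genes in the siNC libraries. The A-to-I median was 5.41 and 5.44 times the C-to-U median in cytosol and 0.634 and 0.626 times in siNC.

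The shift was not the same along the range of scores. For A-to-I, the cytosol exceeded siNC 3.81-fold at the 25th percentile of genes, 2.38-fold at the 75th, 2.10-fold at the 90th and 1.47-fold at the 99th. For C-to-U, cytosol was 0.196 times siNC at the 25th percentile, 0.422 at the 75th and 0.653 at the 99th. As ratios, the highest scores thus lay closer together than the middle of the distributions. In percentage points they lay further apart. At the 99th percentile, cytosol and siNC scored 10.5% and 7.14% for A-to-I and 5.73% and 8.77% for C-to-U. A-to-I scores were listed at 0 for 311 and 320 genes in cytosol (3.04% and 3.13%) and for 1676 and 1859 genes in siNC (16.4% and 18.2%). C-to-U scores were listed at 0 for 15.9% and 16.6% of genes in cytosol and for 10.9% and 12.2% in siNC, although the cytosol libraries were deeper.

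**Figure D1:**
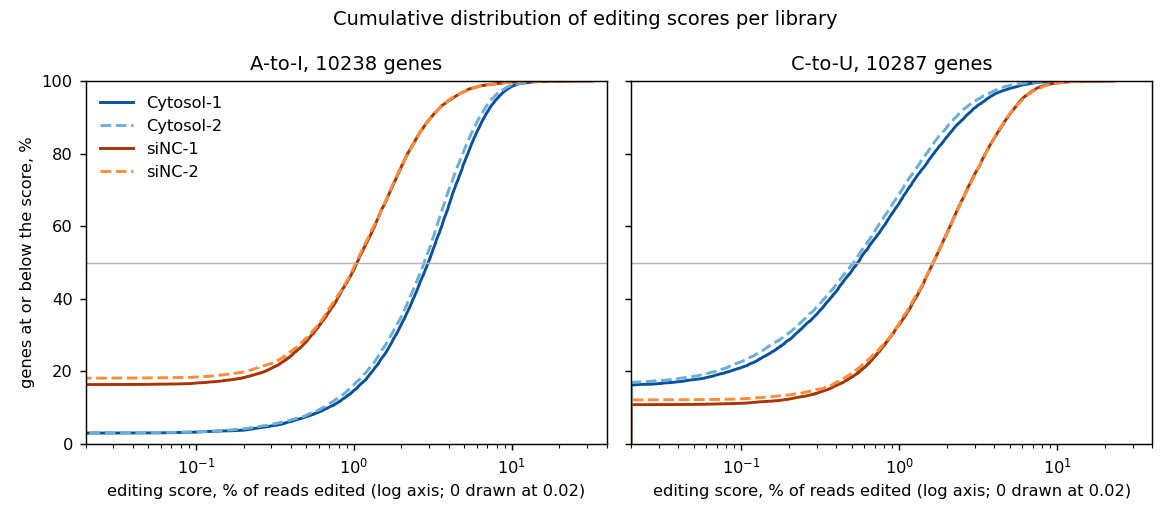
Cumulative distribution of editing scores in each library for genes with at least 50 reads in all 4 libraries, A-to-I on the left and C-to-U on the right; the x axis is the score in percent of reads on a log scale, with 0 drawn at its left edge, and the y axis is the percent of genes at or below it. The cytosol curves (blue) lie to the right of the siNC curves (orange) for A-to-I, with medians of 2.95% and 2.78% against 1.05% and 1.03%, and to the left for C-to-U.

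Each gene was tested with edgeR's quasi-likelihood test on edited and unedited reads, at an adjusted p (Benjamini-Hochberg over all genes tested) below 0.05. A gene needed an edited read in at least 2 libraries, which left 9996 A-to-I and 9900 C-to-U genes. Taking A-to-I scores as they stood, 4992 genes (49.9%) were higher in cytosol and 204 (2.04%) were lower. The libraries' A-to-I scores did not overlap for 7503 genes (73.3%) higher in cytosol and 502 (4.90%) lower. Taking C-to-U scores as they stood, 73 genes (0.737%) were higher in cytosol and 2748 (27.8%) were lower, and scores did not overlap for 1071 (10.4%) and 6706 (65.2%). Without siNC replicate 1 the C-to-U counts were 7 and 1279, without siNC replicate 2 they were 8 and 1221, and without Cytosol replicate 1 or 2, with the siNC libraries kept apart, they were 185 and 4761 or 219 and 4343. Without Cytosol replicate 1 or 2, the A-to-I counts were 2517 and 121 or 3037 and 121.

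To see which genes moved by more or less than the whole transcriptome, each was also tested against the median fitted log2 odds ratio, which was 1.39 for A-to-I and -1.70 for C-to-U. For A-to-I, 449 genes (4.49%) were higher in cytosol relative to the median gene and 639 (6.39%) were lower. These counts were 20 and 161 without Cytosol replicate 1 and 16 and 164 without Cytosol replicate 2, and the higher count was 117 or 170 without siNC replicate 1 or 2. For C-to-U, no gene passed this test in the fit of 3 samples, where 1669 genes (16.9%) were higher and 1342 (13.6%) lower at an unadjusted p below 0.05. In the self-test this planned C-to-U fit recovered none of the changes built in, so its count of 0 says nothing about how many genes differ. A fit that also took the spread from the sorted P-body and siEDC4 libraries was therefore added after the data were seen. It called 1478 genes (14.9%) higher and 1465 (14.8%) lower relative to the median gene. Without Cytosol replicate 1 or 2 that fit called 1098 and 902 or 1081 and 930, and without siNC replicate 1 or 2 it called 965 and 1242 or 940 and 1158. DESeq2, on the 4 libraries with siNC apart, called 577 and 618. C-to-U results relative to the median gene below come from that added fit.

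Genes kept their order less well between the preparations than between replicates. Across 10238 genes, A-to-I scores had a Spearman correlation of 0.886 between the cytosol libraries, 0.625 between the siNC libraries, and 0.413 to 0.443 between a cytosol and an siNC library. The C-to-U correlations across 10287 genes were 0.776, 0.735 and 0.287 to 0.336. These describe genes, which share libraries and read depth and are not replicates. At a minimum of 1000 reads the values between preparations were 0.669 to 0.678 for A-to-I and 0.611 to 0.628 for C-to-U, against at least 0.908 and 0.885 between replicates. The median gene moved by 17.6 to 18.3 percentile points between preparations for A-to-I and by 6.66 and 11.7 points between replicates. For C-to-U it moved by 19.4 to 20.5 points between preparations and by 8.67 and 9.90 between replicates.

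The most edited genes overlapped less between preparations than between replicates. Of the 1024 genes in the top 10% for A-to-I, 72.6% were shared by the cytosol libraries and 61.4% by the siNC libraries, but 28.1% to 31.4% by a cytosol and an siNC library. For C-to-U, with 1029 genes in the top 10%, the shares were 70.5%, 65.2% and 24.3% to 26.6%. A gene was counted as shifted in rank where both cytosol ranks lay above, or both below, both siNC ranks and the group means were at least 20 percentile points apart; no test was made. By this count 1874 A-to-I genes (18.3%) ranked higher in cytosol and 1899 (18.5%) ranked lower. For C-to-U, 2104 (20.5%) ranked higher and 2270 (22.1%) lower.

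**Figure D2:**
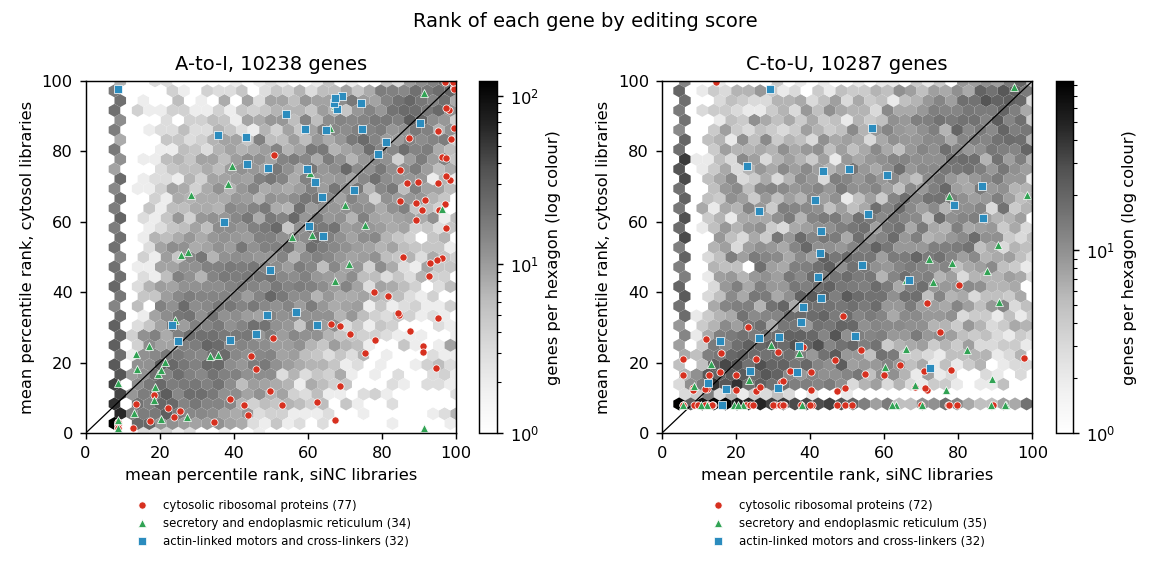
Mean percentile rank of each gene by editing score in the siNC libraries (x axis) and the cytosol libraries (y axis), shaded by the number of genes per hexagon on a log colour scale, with 3 gene lists drawn as points and the line of equal rank. Ribosomal protein genes fall below the line for both editors (median A-to-I rank 33.6 in cytosol and 84.7 in siNC), secretory genes fall below it for C-to-U, and the columns and rows of dense hexagons near the axes are genes listed at 0.

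Cytosolic ribosomal protein genes did not share the general A-to-I shift. Their median A-to-I score was 2.08% in both cytosol libraries and 2.50% and 2.51% in the siNC libraries, and 41 of 77 ranked lower in cytosol and 1 higher. Of 67 tested, 13 were higher in cytosol and 16 lower as scores stood, and 55 were lower and 1 higher relative to the median gene (edgeR). Without Cytosol replicate 1 or 2, 5 and 5 or 8 and 6 passed as scores stood, and 25 or 31 were lower relative to the median gene. With the centre set on housekeeping lists (these genes, translation factors and proteasome subunits) 31 were lower and 4 higher. Over all 9996 A-to-I genes, 345 were lower and 2502 higher with that centre. RPLP1, a stalk protein of the large subunit, scored 1.95% and 1.89% in cytosol and 3.88% and 4.40% in siNC. Its relative log2 odds ratio was -2.52 ± 0.19 (SE; edgeR adjusted p = 1.5e-05). RPL34 scored 0.0793% and 0.201% in cytosol and 1.43% and 1.80% in siNC, with 11 of 7754 edited reads against 59 of 3674. Both genes were lower in each cytosol library than in each siNC library. Ribosomal protein genes have many processed pseudogenes, so their reads may be divided with near-identical copies and their values are uncertain.

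For C-to-U, ribosomal protein genes had a median score of 0% in both cytosol libraries and 0.887% and 0.993% in siNC. Of 72 ranked, 31 were at 0 in both cytosol libraries and 4 in both siNC libraries. Of 61 tested, 47 were lower in cytosol and 1 higher as scores stood, and 46 were lower and 2 higher relative to the median gene. In the same fit with the housekeeping centre, 28 were lower and 6 higher. Over all 9900 C-to-U genes, 200 were lower and 5768 higher with that centre. RPL11 had 0 of 15212 edited reads in cytosol and scored 2.86% and 3.73% in siNC, at least 167-fold lower when the 0 is set at 3 reads over the group, the limit used throughout. RPS25 was likewise listed at 0 in cytosol and scored 4.15% and 5.47% in siNC. The gene that was higher was RPL13A (chr19:49487510-49493057, hg38), which scored 8.83% and 8.81% in cytosol and 0.273% and 0.345% in siNC. That was 28.6-fold (log2 odds ratio 4.97 ± 0.55, edgeR adjusted p = 0.032), and the sorted P-body libraries gave 8.71% and 7.49%.

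Chaperone mRNAs parted by member for A-to-I. HSPD1 (chr2:197486584-197516737, hg38), the mitochondrial chaperonin, scored 3.53% and 2.61% in cytosol, with 778 of 25473 edited reads, and was listed at 0 of 10939 reads in siNC. The cytosol was at least 111-fold higher (edgeR adjusted p = 2.7e-05 relative to the median gene). HSP90AB1, a cytosolic HSP90, scored 4.15% and 3.81% against 0.272% and 0.115%, 20.2-fold (relative log2 odds ratio 3.00 ± 0.23, edgeR adjusted p = 1.6e-05). Both calls held without any 1 library, and both genes have near-identical pseudogene copies. CCT6A, a subunit of the cytosolic chaperonin, went the other way with 0.645% and 0.376% in cytosol and 2.27% and 2.95% in siNC. Of 24 tested members of this list, 18 were higher and 1 lower as scores stood, against 49.9% and 2.04% of all A-to-I genes. Relative to the median gene 5 members were higher and 2 lower, against 4.49% and 6.39% of all genes. With the housekeeping centre 16 were higher and 2 lower, and without any 1 library the relative higher count was 2 or 3.

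The C-to-U scores of the same chaperones were low in cytosol. HSP90AB1 scored 0.0110% and 0.0102% there and 0.664% and 0.486% in siNC. HSPD1 was listed at 0 of 25249 reads in cytosol and scored 0.441% and 0.380% in siNC. As scores stood, 13 of 24 tested members were lower in cytosol, and 4 or 6 without siNC replicate 1 or 2. None was higher by edgeR, by DESeq2 or at an unadjusted p below 0.05. Relative to the median gene 7 were lower, while in the same fit with the housekeeping centre 6 were higher and 1 lower. Of all 9900 C-to-U genes, 27.8% were lower as scores stood and 14.8% were lower relative to the median gene. With the housekeeping centre 5768 of them were higher and 200 lower, so a higher count there was not particular to chaperones.

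Genes of the secretory pathway and endoplasmic reticulum scored far lower in cytosol for C-to-U. Their median C-to-U score was 0.0462% and 0.0504% in cytosol against 2.25% and 2.71% in siNC, and 21 of 35 ranked lower in cytosol and 0 higher. Of 33 tested, 25 were lower in cytosol as scores stood, where 27.8% of all C-to-U genes were lower. Relative to the median gene 22 were lower and 1 higher, where 14.8% and 14.9% of all genes were. In the same fit with the housekeeping centre 10 were lower and 8 higher, where 200 of all 9900 genes were lower and 5768 higher. HSP90B1, the HSP90 of the endoplasmic reticulum, had 0 of 20557 edited reads in cytosol and scored 4.57% and 4.70% in siNC. P4HB, a protein disulfide isomerase, had 0 of 11557 and scored 5.27% and 5.45%. TMED2, a cargo receptor of transport vesicles, had 1 of 7599 edited reads in cytosol and scored 3.02% and 3.43% in siNC, yet 5.28% and 5.60% in sorted P-bodies. Its ratio of siNC to cytosol was 244.5, with a 95% counting interval of 42.7 to 9772.

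For A-to-I, 24 of 32 tested secretory genes were higher in cytosol and 1 was lower as scores stood, with median scores of 1.87% and 1.69% against 0.506% and 0.543%. Their median rank was 28.5 in cytosol and 28.1 in siNC. The lower gene was PDIA6 (chr2:10783391-10837977), another disulfide isomerase. It had 0 of 9534 edited reads in cytosol and 152 of 4656 in siNC, with scores of 3.07% and 3.48%, at least 104-fold lower (edgeR adjusted p = 1.9e-06 relative to the median gene). In sorted P-bodies it scored 1.53% and 2.63%.

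Translation factors and tRNA synthetases serve the ribosome. EIF4G2, a translation initiation factor, scored 2.83% and 2.88% for A-to-I in cytosol and 0.327% and 0.156% in siNC, 11.7-fold. EIF4G1, the scaffold of the cap-binding complex, scored 4.02% and 3.62% against 0.453% and 0.647%. For C-to-U, EIF4G1 had 3 of 29715 edited reads in cytosol and scored 1.63% and 1.52% in siNC, a ratio of 156 of siNC to cytosol with a 95% counting interval of 52.4 to 764. EEF1A1, the elongation factor that carries tRNA and one with many pseudogenes, scored 0.0169% and 0.0165% for C-to-U in cytosol and 1.48% and 1.61% in siNC. Of 40 translation factors tested for A-to-I, 31 were higher in cytosol as scores stood; none was lower by edgeR or DESeq2, and 1 was at an unadjusted p below 0.05. Relative to the median gene 8 were higher and 6 lower, none of either kind passed without Cytosol replicate 1 or 2, and 19 and 2 passed with the housekeeping centre. Of 37 tested for C-to-U, 17 were lower as scores stood (8 or 7 without siNC replicate 1 or 2), and 12 were lower and 4 higher relative to the median gene. The lower count was 6 without Cytosol replicate 2 and the higher count 2 or 1 without siNC replicate 1 or 2. In the same fit with the housekeeping centre, 15 were higher and 5 lower, where 5768 of all 9900 C-to-U genes were higher and 200 lower. Relative to the median gene 14.8% of all C-to-U genes were lower and 14.9% higher. For A-to-I, the housekeeping centre gave 2502 higher and 345 lower of all 9996 genes.

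IARS1, the isoleucyl-tRNA synthetase, scored 6.78% and 6.95% for A-to-I in cytosol and 1.09% and 0.840% in siNC. For C-to-U it was listed at 0 of 32149 reads in cytosol and scored 1.33% and 0.837% in siNC, at least 116.5-fold lower. LARS1, the leucyl-tRNA synthetase, differed from it for A-to-I, with 3.38% and 3.53% in cytosol and 4.02% and 3.16% in siNC, ranges that overlapped. Its C-to-U scores were 0.219% and 0.199% in cytosol and 7.31% and 7.51% in siNC. Of 18 synthetases tested for C-to-U, 13 were lower as scores stood and 12 relative to the median gene. Without siNC replicate 1 or 2 the first count was 5 or 7. With the housekeeping centre, in the fit that gave the second, 5 were lower and 4 higher. That centre gave 200 lower and 5768 higher of all 9900 C-to-U genes. As scores stood 27.8% of all were lower, and relative to the median gene 14.8%.

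Genes for energy metabolism did not behave alike. Nuclear-encoded oxidative phosphorylation genes had median A-to-I scores of 0.911% and 0.871% in cytosol and 0.226% and 0.402% in siNC, with median ranks of 13.1 and 27.9, and 13 of 67 ranked lower in cytosol, a share near the 18.5% of all genes, and 2 higher. Of 50 tested, 21 were higher as scores stood, 13 without Cytosol replicate 2. The share over all A-to-I genes was 49.9%. For C-to-U, the oxidative phosphorylation genes had a median score of 0% in both cytosol libraries and 0.501% and 0.734% in siNC. Of 66, 31 were at 0 in both cytosol libraries. NDUFV1, a subunit of complex I, had 0 of 4882 C-to-U reads in cytosol and scored 7.01% and 7.36% in siNC. Glycolysis genes had median A-to-I scores of 2.28% and 2.47% in cytosol and 1.11% and 1.07% in siNC, and of 15 tested 12 were higher and 1 lower. The lower gene was LDHA, lactate dehydrogenase, which was lower in cytosol for both editors. It scored 0.887% and 0.483% against 2.02% and 2.15% for A-to-I, and 0 of 16889 reads against 2.77% and 3.00% for C-to-U. It also has many pseudogenes. Of 14 glycolysis genes tested for C-to-U, 9 were lower in cytosol, both as scores stood and relative to the median gene. The first count was 6 without siNC replicate 2 and the second 5 without Cytosol replicate 2. With the housekeeping centre, in the fit that gave the second, 2 were lower and 3 higher. That centre gave 200 lower and 5768 higher of all 9900 C-to-U genes. As scores stood 27.8% of all were lower, and relative to the median gene 14.8%.

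**Figure D3:**
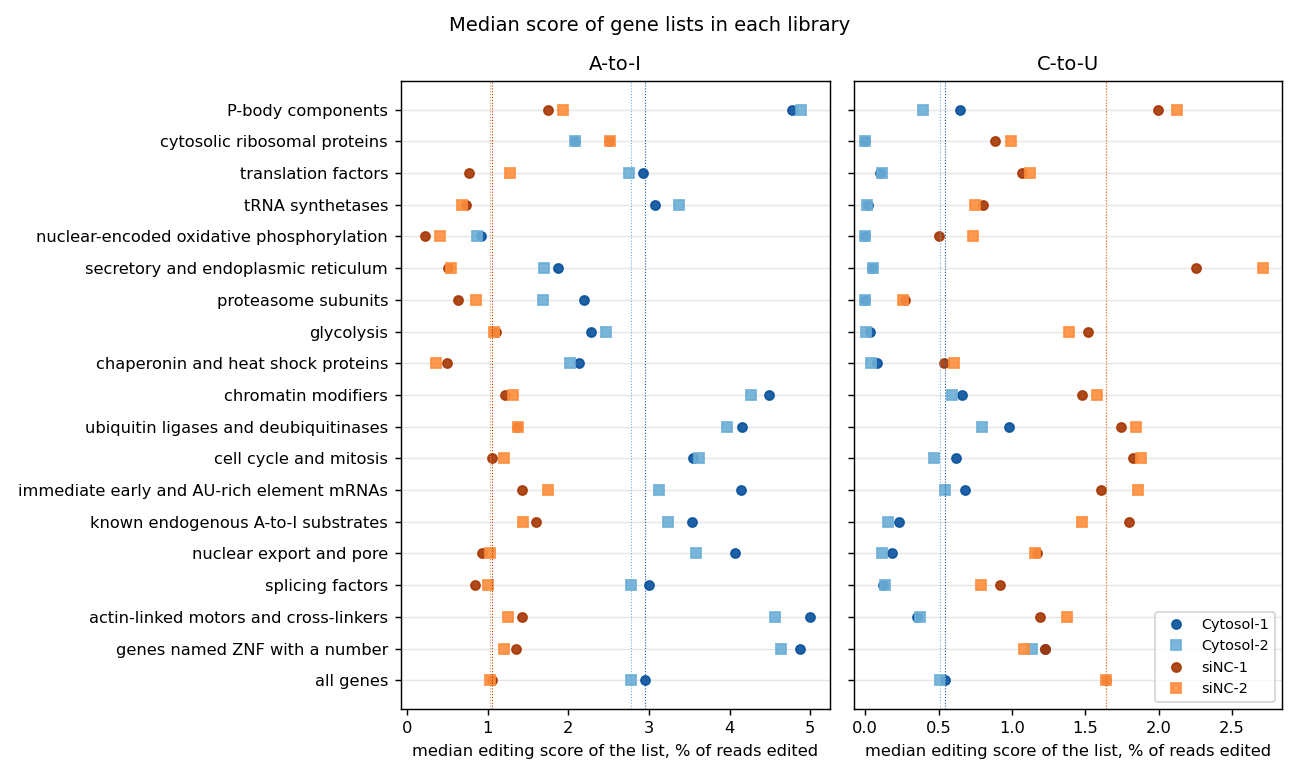
Median editing score of each gene list (percent of reads, x axis) in each of the 4 libraries, A-to-I on the left and C-to-U on the right, with dotted lines at the median of all genes in each library. Ribosomal protein genes have higher A-to-I medians in both siNC libraries (2.50% and 2.51%) than in cytosol (2.08%), and genes named ZNF have C-to-U medians of 1.23% and 1.14% in cytosol and 1.23% and 1.09% in siNC.

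Chromatin and cytoskeletal genes ranked high for A-to-I in cytosol, with median ranks of 72.9 and 75.9, against 58.6 and 60.1 in siNC. Other lists did so too. P-body components had a median rank of 78.5 in cytosol, and 9 of 28 nuclear export and pore genes were higher and 2 lower relative to the median gene. Chromatin modifiers had median A-to-I scores of 4.48% and 4.27% in cytosol and 1.22% and 1.32% in siNC. Of 58 tested, 49 were higher in cytosol as scores stood, 8 were higher and 0 lower relative to the median gene, and 16 ranked higher against 3 lower. Of all A-to-I genes, 49.9% were higher as scores stood, and 4.49% were higher and 6.39% lower relative to the median gene. By rank, 18.3% of all were higher and 18.5% lower. Actin-linked motors and cross-linkers had medians of 5.002% and 4.56% against 1.43% and 1.25%, and 8 of 32 were higher and 0 lower relative to the median gene. Without Cytosol replicate 1 or 2 the relative count was 0 in both lists. Without siNC replicate 1 or 2 it was 1 or 3 of the chromatin genes and 3 or 4 of the actin-linked genes; with the housekeeping centre it was 34 and 21. That centre made 2502 of all 9996 A-to-I genes higher. MYH9, a non-muscle myosin, scored 5.84% and 5.43% in cytosol and 0.832% and 0.511% in siNC. FLNA, the actin cross-linker filamin and a known substrate of endogenous ADAR, scored 7.88% and 8.15% against 1.596% and 1.76%. HUWE1, a very large ubiquitin ligase, scored 6.47% and 6.43% against 1.22% and 1.09%, on 62673 cytosol and 10289 siNC reads. Scores of these 3 genes did not overlap between the groups, but their calls relative to the median gene were lost without either cytosol library.

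Genes named ZNF with a number, most of which encode zinc finger proteins, had similar C-to-U levels in both preparations. Their median C-to-U score was 1.23% and 1.14% in cytosol and 1.23% and 1.09% in siNC, and their median rank was 71.2 in cytosol and 38.6 in siNC. Of 263 tested, 13 were higher and 16 lower as scores stood (0 and 7 without siNC replicate 1, 1 and 6 without siNC replicate 2, 24 and 39 or 30 and 33 without Cytosol replicate 1 or 2). Against the median gene, 104 were higher and 3 lower. That higher count was 85 or 81 without Cytosol replicate 1 or 2 and 82 or 67 without siNC replicate 1 or 2. With the housekeeping centre it was 221, where 5768 of all 9900 genes were higher. Of 266 ranked, 131 ranked higher in cytosol and 17 lower, and 48 were at 0 in both siNC libraries. The least covered of 5 equal-sized groups of all genes came near this. There 43.8% ranked higher and 9.52% lower for C-to-U, and the ratio of cytosol to siNC was 0.776. The part of read depth in the ZNF values was not tested. For A-to-I, 145 of 256 were higher in cytosol, 63 or 77 without Cytosol replicate 1 or 2. Of all A-to-I genes, 49.9% were higher as scores stood. Against the median gene, 11 of the ZNF genes were higher and 11 lower, shares near or below the 4.49% and 6.39% of all genes. With the housekeeping centre 77 and 2 passed, where 2502 and 345 of all 9996 genes did. ZNF566 scored 7.75% and 7.43% for C-to-U in cytosol and was listed at 0 of 223 reads in siNC, at least 5.64-fold higher. ZNF267 was among the 6 highest C-to-U genes of the cytosol with 11.3% and 12.8%, against 6.90% and 3.21% in siNC. Its call as scores stood (edgeR adjusted p = 0.049) was lost without either siNC library.

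The P-body genes DDX6, EDC4, LSM14A and DCP1A differed among themselves. DDX6, the RNA helicase of the granule, scored 5.49% and 5.56% for A-to-I in cytosol and 2.27% and 2.07% in siNC. Its log2 odds ratio was 1.40 ± 0.15 (edgeR adjusted p = 6.5e-05), and relative to the median gene it was 0.01 ± 0.15 (adjusted p = 0.973). LSM14A, a translational repressor, scored 4.03% and 3.34% in cytosol and 3.20% and 2.83% in siNC and was lower relative to the median gene by -1.09 ± 0.19 (edgeR adjusted p = 0.003). That call was lost without either cytosol library. EDC4 scored 3.31% and 2.83% against 0.877% and 0.985%, and DCP1A, of the decapping complex, 6.54% and 5.82% against 3.02% and 3.27%. Both were higher in cytosol as scores stood (DCP1A not without Cytosol replicate 1, edgeR adjusted p = 0.053), and neither passed the test relative to the median gene.

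For C-to-U, LSM14A scored 0.120% and 0.342% in cytosol and 4.60% and 4.08% in siNC, 19.03-fold lower (edgeR adjusted p = 0.033). DDX6 scored 0.721% and 0.456% in cytosol and 1.62% and 1.06% in siNC, and EDC4 0.148% and 0.0706% against 0 and 0.816%. Neither passed the test. With the siNC libraries kept apart, DDX6 passed as scores stood (edgeR adjusted p = 0.032), though not by DESeq2 (adjusted p = 0.098). Of 25 P-body components tested, 7 were lower in cytosol as scores stood, a share close to the 27.8% of all genes (2 or 3 without siNC replicate 1 or 2, 14 without either cytosol library). None was higher by edgeR, by DESeq2 or at an unadjusted p below 0.05. Relative to the median gene 5 were lower and 3 higher (3 and 3 without either cytosol library), which turned to 0 and 13 in the same fit with the housekeeping centre. Over all C-to-U genes, 14.8% were lower and 14.9% higher. With the housekeeping centre, 5768 of 9900 genes were higher and 200 lower. Among the 3 P-body genes higher relative to the median gene were XRN1, the 5′-to-3′ exonuclease, and TNRC6B, a partner of Argonaute. XRN1 scored 4.13% and 3.43% in cytosol and 3.27% and 2.81% in siNC (relative log2 odds ratio 2.00 ± 0.42, edgeR adjusted p = 9.9e-05). Of 24 components tested for A-to-I, 17 were higher in cytosol (9 without Cytosol replicate 1), and 1 was higher and 2 lower relative to the median gene, against 6 and 0 with the housekeeping centre.

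**Figure D4:**
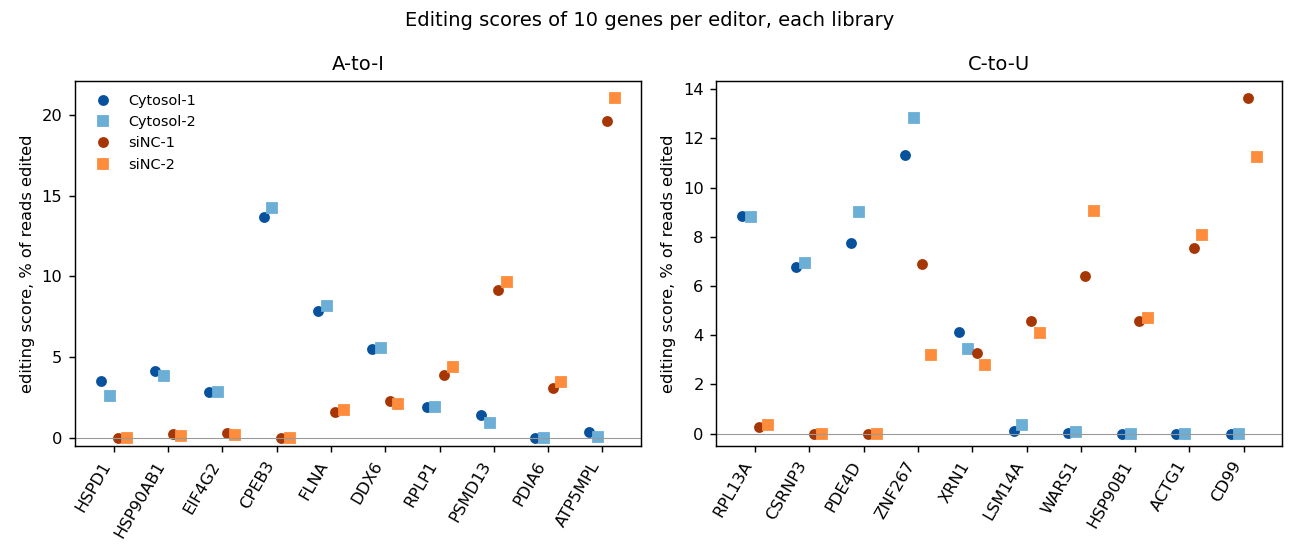
Editing scores (percent of reads, y axis) of 10 genes per editor in each of the 4 libraries, A-to-I on the left and C-to-U on the right. HSPD1 and CPEB3 are at 0 for A-to-I in both siNC libraries and ATP5MPL is at 19.6% and 21.04% there, while ACTG1 and CD99 are at 0 for C-to-U in both cytosol libraries.

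The largest A-to-I rises were ranked by fitted log2 odds ratio, which becomes extreme where a group has 0 edited reads. Genes listed at 0 in siNC therefore led this ranking, and their fold changes are given as lower limits. CPEB3 (chr10:92046692-92291078), an RNA-binding repressor of translation, scored 13.7% and 14.3% in cytosol and 0 of 284 reads in siNC, at least 13.2-fold higher. HIVEP1, a zinc finger transcription factor, scored 10.8% and 11.6% against 0 of 611 reads, at least 22.8-fold. LPP, an adhesion protein, scored 8.36% and 7.19% against 0 of 703 reads, at least 18.2-fold. Groups did not overlap in any of the 3, yet without Cytosol replicate 1 their adjusted p relative to the median gene rose above 0.05, with values of 0.057 for HIVEP1 and 0.11 for CPEB3. EBP was among the 6 highest genes of the cytosol at 23.6% and 26.0%, against 6.03% and 3.43% in siNC. PMF1 was high in both, with 22.1% and 24.2% against 12.1% and 14.1%.

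Other genes had high A-to-I scores in siNC and low ones in cytosol. ATP5MPL (chr14:103912288-103928269), a small subunit of ATP synthase, scored 0.340% and 0.0794% in cytosol and 19.6% and 21.04% in siNC, 98.9-fold lower (relative log2 odds ratio -8.21 ± 0.38, edgeR adjusted p = 1.1e-06). MRPS9, a mitochondrial ribosomal protein, scored 0.213% and 0.662% against 17.2% and 14.7%. CCDC12 scored 0.189% and 0.570% against 14.7% and 13.2%. PSMD13, a proteasome lid subunit, scored 1.45% and 0.931% against 9.17% and 9.66%, 7.94-fold lower, whereas its sorted P-body scores were 7.52% and 6.21%. These 4 calls held without any 1 library.

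For C-to-U, ACTG1 (chr17:81509413-81523847), cytoplasmic gamma actin, was not edited in cytosol at high depth. It had 0 of 38914 edited reads in cytosol and 1515 of 19422 in siNC, with scores of 7.54% and 8.09%, at least 1012-fold lower (edgeR adjusted p = 0.032). ACTG1 shares long stretches with other actin genes, so its reads may be divided with them. RCC2, a regulator of chromosome condensation, had 0 of 15422 edited reads and scored 6.91% and 6.98% in siNC, at least 357-fold lower. CD99, a surface glycoprotein, had 0 of 4308 and scored 13.6% and 11.2%, at least 180-fold lower. Sorted P-body scores of all 3 were below 1%, at 0.549% and 0.730% for ACTG1, 0.295% and 0.370% for RCC2 and 0.163% and 0.218% for CD99.

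Other genes had such zeros. Among C-to-U genes whose siNC share would give at least 20 edited reads at the cytosol depth, 338 had 0 edited reads in both cytosol libraries, and 3 met the reverse. Their median siNC score was 1.39% on a median of 3729 cytosol reads, and 300 of them had an edited read in sorted P-bodies. For A-to-I, 2 genes were at 0 in cytosol and 54 in siNC by the same rule. How many genes could meet the rule on each side is not given here, and it depends on depth and score. The median C-to-U gene had 891 and 932 reads in the cytosol libraries and 369 and 339 in the siNC libraries. These counts therefore do not compare how common zeros were in the preparations. Among the C-to-U genes at 0 in both cytosol libraries, EEF2, the translocation factor of elongation, had the most reads, 0 of 77595 edited. It had 66 edited reads of 42981 in siNC and 0 of 58802 in sorted P-bodies.

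Some C-to-U scores were higher in cytosol. CSRNP3 scored 6.76% and 6.92% in cytosol and 0 of 371 reads in siNC, at least 8.46-fold higher. PDE4D (chr5:58969038-60522120), a cyclic AMP phosphodiesterase, scored 7.75% and 8.997% against 0 of 275 reads, at least 7.67-fold. Sorted P-bodies scored higher in both genes, at 19.7% and 19.3% for CSRNP3 and 15.8% and 16.4% for PDE4D. PPP1R9A, which binds actin in neurons, was higher in cytosol for both editors. It scored 9.73% and 8.37% against 0 of 453 reads for A-to-I and 4.83% and 4.17% against 1.73% and 0 for C-to-U, and the C-to-U call was lost without siNC replicate 2. ATF1 had nearly the same C-to-U score in both, 10.2% and 9.77% in cytosol and 10.2% and 8.20% in siNC.

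The shift varied with the make-up of the mRNA, described here by 5 equal-sized groups of genes per feature and by median scores with no test. With coding length, the A-to-I score went from 1.99% in the group with the shortest to 3.82% in that with the longest in cytosol and from 0.943% to 1.22% in siNC. The ratio of cytosol to siNC went from 2.11 to 3.12. For C-to-U it went from 0.320% to 0.732% in cytosol and from 1.87% to 1.55% in siNC, so the libraries ran in opposite directions. Genes with long 3′ UTRs scored higher in both preparations: A-to-I scores went from 2.17% to 4.14% in cytosol and 0.794% to 1.53% in siNC, and C-to-U scores from 0.226% to 1.22% and from 1.10% to 2.39%. With the GC share of the coding sequence, C-to-U scores went from 1.37% to 0.410% in cytosol and from 2.55% to 1.14% in siNC. The cytosol score did not fall steadily and was lowest, at 0.304%, in group 4. From low to high GC, the ratio of cytosol to siNC was 0.535, 0.317, 0.2405, 0.2408 and 0.359.

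Read depth moved with the C-to-U result. From the least to the most covered group of genes, the C-to-U score went from 0.791% to 0.230% in cytosol and from 1.02% to 1.78% in siNC, and the ratio of cytosol to siNC from 0.776 to 0.129. The part of depth in the C-to-U shift was not tested. For A-to-I the ratio was 3.65 in the least covered group, between 2.29 and 2.64 in the next 3 and 2.90 in the most covered. At a minimum of 1000 reads the median C-to-U score was 10.08-fold higher in siNC than in cytosol and the median A-to-I score 3.25-fold higher in cytosol.

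**Figure D5:**
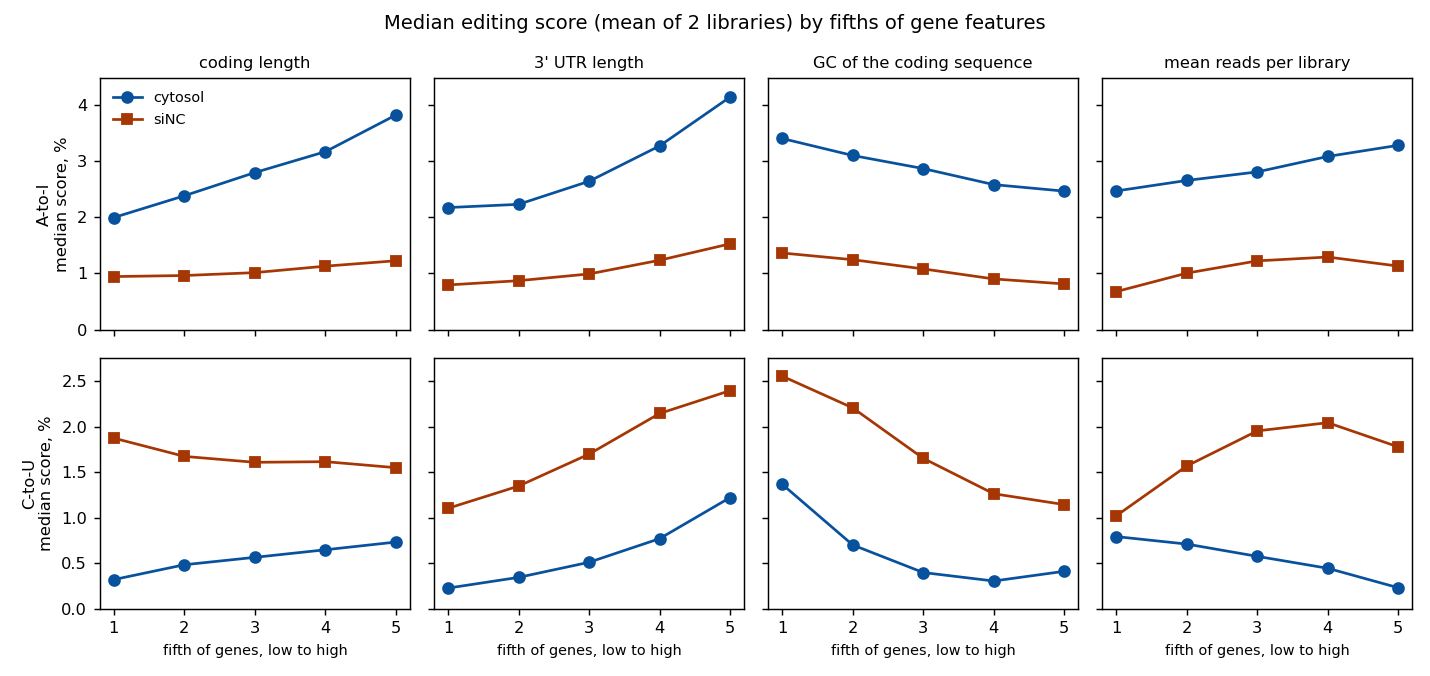
Median editing score (percent of reads, mean of the libraries of a preparation, y axis) in 5 groups of genes ordered by coding length, 3′ UTR length, GC share of the coding sequence and mean reads per library (x axis, low to high), A-to-I above and C-to-U below. The A-to-I gap widens with coding length (ratio 2.11 to 3.12), and the C-to-U cytosol line falls with read depth (0.791% to 0.230%) where the siNC line ends above its start (1.02% to 1.78%).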

How the data were processed

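The submitters' processing notes name cutadapt 1.18, STAR 2.7.9a, featureCounts 2.0.1 and the build hg38, with no settings. The authors deposited counts of edited reads and counts of reads per gene and library. Reads were handled as estimated counts, since shifted values in the 3 broken lines of each deposited table, which were left out, are not all whole, while all others are. The editing score deposited by the authors is a fraction, edited reads over reads. Site calling, annotation and strand use were not given in the sources used here, nor whether both experiments shared a site list. Deposited gene counts were used for markers and gene coordinates. No column was left unmapped (0 columns).

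Genes needed at least 50 reads in each library, and in tests an edited read in at least 2. edgeR 4.0.16 (R 4.3.3) fitted edited and unedited reads with 1 abundance effect per library and 1 edited share per group, with the siNC libraries summed (kept apart in the replicate block, in DESeq2 and limma, and where a cytosol library was left out of the fit without the other groups). Tests ran against 0 and against the median log2 odds ratio. For C-to-U relative to the median gene, the fit with the spread of all 4 groups was added after the data were seen, as the planned fit made no call and recovered no change in the self-test; the added fit also chose the named C-to-U genes. The scripts were tested on simulated data. Alternatives used DESeq2 1.42.0 and limma 3.58.1. Same-numbered libraries did not deviate together (correlation of replicate differences -0.0012 for A-to-I and 0.013 for C-to-U), so no pairing was used. Gene features came from GENCODE 29. Intervals cover counting error only.

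Named genes were, per editor, those with at least 100 reads per library that passed the relative test without overlap (the 8 largest rises and 8 largest falls), the 6 highest scores per group, the 6 largest rank rises and falls, DDX6, EDC4, LSM14A and DCP1A, and the 3 smallest p-values of each list with at least 5 tested members. Not all of them are described. EEF2 was chosen after its values were seen. The members and gene lists were chosen with earlier results of these data known.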

Additional observations from a re-analysis of the deposited data

How the results depend on the processing

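For A-to-I as scores stood, the counts higher and lower in cytosol were 2962 and 129 with DESeq2 and 1000 and 45 at a minimum of 1000 reads, where 1209 genes were tested. Leaving out 1 library gave 2517 to 3656 and 121 to 164. Relative to the median gene they were 106 and 420 with DESeq2, 2502 and 345 with the centre on housekeeping lists, and 156 and 233 at 1000 reads. The lower count was 396 with limma. Leaving out 1 library gave 16 to 170 higher and 161 to 458 lower. The replicate block gave 560 and 759, and 4738 and 195 as scores stood. The median ratio was 2.52 at 200 reads, 2.34 for pooled reads, 3.25 at 1000 reads and 2.37 for genes edited in all 4 libraries. Rank rises and falls were 1249 and 1132 at 30 points and 193 and 175 at 1000 reads, and falls 1237 at 200 reads.

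For C-to-U as scores stood, the higher and lower counts were 235 and 4799 with the siNC libraries apart, 190 and 4795 with the replicate block, 241 and 4915 with the spread of all groups and 3 and 927 at 1000 reads. limma gave 515 and 4342, and 495 higher with the smaller pseudocount. At 200 reads 44 were higher. Leaving out 1 library gave 7 to 219 and 1221 to 4761. Relative to the median gene, against 0 and 0 in the planned fit, they were 1318 and 1280 with siNC apart, 1295 and 1453 with the replicate block, 577 and 618 with DESeq2, 871 and 528 with limma, 1025 and 754 with the smaller pseudocount, 5044 and 41 with the housekeeping centre, 1478 and 1465 with the spread of all groups and 169 and 138 at 1000 reads. Leaving out 1 library gave 0 to 1204 and 0 to 1108. With the spread of all groups they were 5768 and 200 with the housekeeping centre, 1098 and 902 without Cytosol replicate 1, 1081 and 930 without Cytosol replicate 2, 965 and 1242 without siNC replicate 1 and 940 and 1158 without siNC replicate 2. The siNC to cytosol ratio was 4.37 at 200 reads and 10.08 at 1000. Rank rises and falls were 1293 and 1324 at 200 reads and 200 and 212 at 1000, and falls 1421 at 30 points.

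The housekeeping centre was 0.56 for A-to-I and -4.28 for C-to-U (-4.14 with the spread of all groups), against 1.39 and -1.70. It turned 9 named C-to-U genes positive relative to the centre. Their log2 odds ratios in the planned fit and with the spread of all groups were 0.235 and 0.0932 for TSPAN7, 1.05 and 0.912 for SH3BGRL, 2.36 and 2.22 for TMED7, 1.09 and 0.952 for COQ7, 0.329 and 0.196 for PSMB2, 0.754 and 0.612 for MCL1, 0.424 and 0.289 for STMN1, and 0.946 and 0.803 for INA. HSP90AA1 gave 0.135 in the planned fit only. No other setting reversed a named gene. Of 87 named A-to-I genes, 52 and 53 lost their side of the threshold relative to the median gene without Cytosol replicate 1 and 2, and 20 and 16 without siNC replicate 1 and 2. The cause of these changes was not tested, beyond fewer genes or samples where a setting removes them. The shift in opposite directions held in all settings run for the median scores. At 50 reads, a score of 1% is less than 1 edited read.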
